A study of Homo sapiens with 29 samples.

Results

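The genes described here encode SR proteins and heterogeneous nuclear ribonucleoproteins (hnRNPs), with the kinases and relatives that act on or with SR proteins. Members were taken by symbol. They are the protein-coding genes named SRSF with a number or HNRNP with any ending, together with TRA2A, TRA2B, CLK1, CLK2, CLK3, CLK4, SRPK1, SRPK2, CCNL2, SRRM1, SRRM2, SON and RBM39. Of 52 symbols that fit, 47 were among the 10737 genes measured in any of the 3 deposited tables. SRSF12, HNRNPCL1, HNRNPCL2, HNRNPCL3 and HNRNPCL4 were in none, and a gene was kept by the authors only if it had at least 700 counts in at least 2 libraries. The 47 genes comprised 11 SR protein genes, 2 TRA2 genes, 6 kinases, 5 SR-related genes and 23 hnRNP genes. All 47 were among the 10577 genes of the Mps1i comparison and the 10594 of the micronucleus comparison, and 45 among the 9461 of the rupture comparison, where CLK2 and HNRNPUL2 were not analysed here.

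RNA was measured in hTERT RPE-1, a non-transformed line from human retinal pigment epithelium immortalised with telomerase, here carrying fluorescent chromatin and nuclear reporters. BAY1217389 (Mps1i, 100 nM for 24 h) inhibits the spindle checkpoint kinase Mps1, so that chromosomes missegregate and micronuclei (MN) form, and DMSO is its solvent. Cells were sorted by image-guided photoactivation with a 200 ms or an 800 ms pulse. The comparisons were 4 Mps1i against 4 DMSO libraries (2 experiments), 4 MN+ against 4 MN- libraries, all given BAY1217389 (2 experiments), and 3 rupture+ against 3 rupture- libraries of micronucleated cells (3 experiments), all given BAY1217389 and RO-3306, a Cdk1 inhibitor. The sample labels name RO-3306 as the pre-treatment of the rupture libraries, while the study's methods name a Cdk4/6 inhibitor for synchronisation. By those methods, all sorted cells, DMSO included, also received RO-3306 shortly before imaging. Every rupture+ library had the 200 ms pulse and every rupture- library the 800 ms pulse, so rupture and pulse cannot be told apart. In the other tables each condition had both pulses in each experiment. Libraries of one condition and experiment divide cells treated on the same day, and the study describes those of its Mps1i and DMSO experiments as technical replicates. The p-values and SDs therefore reflect how far these libraries scatter, which is partly technical. Where n = 4, the libraries come from 2 experiments and are not 4 independent replicates.

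SR proteins bind exonic enhancers through RNA recognition motifs, and use their arginine and serine-rich (RS) domains to recruit U1 and U2 components to splice sites. Their RS domains are phosphorylated by SRPK kinases in the cytoplasm, which promotes nuclear import, and by CLK kinases in the nucleus, which releases SR proteins from speckles. The hnRNPs coat nascent transcripts, and many of them oppose SR proteins at silencer elements. Many genes of both families limit their own RNA by splicing in a poison exon or retaining an intron, which sends the transcript to nonsense-mediated decay (NMD).

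Total counts per library ranged from 47919780 to 145242185. One MN- library (experiment 2, 200 ms) had 62831160 counts, against at least 116934561 in the others of its day. Of 14 markers of retinal pigment epithelium and other epithelia, 5 were measured (MITF, OTX2, KRT7, KRT8 and KRT18), and defining genes such as RPE65, BEST1 and TYR were absent. Levels are given as CPM, counts relative to the library total after TMM scaling, which corrects the totals for composition. Differences are log2 fold changes from edgeR (quasi-likelihood) with condition as the only term. Their p-values were adjusted by Benjamini-Hochberg over all genes of a table, and "passed" means an adjusted p below 0.05. Since each sorted pool holds many cells, fewer cells of a type and less RNA per cell cannot be told apart.

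Per kilobase of the canonical transcript, the 45 members found in all tables spanned a wide range of levels in DMSO. HNRNPK, a poly(C)-binding protein, was highest at 423 CPM per kb. HNRNPA2B1, a reader of splicing silencers and transport signals, followed at 310 CPM per kb (309.8), then HNRNPC, which binds uridine tracts, at 237. SRSF9 was the highest SR protein gene at 228 CPM per kb, before SRSF5 at 141, SRSF2 at 135 and SRSF7 at 129.7. At the low end of these 45 were HNRNPUL2-BSCL2 (2.7 CPM per kb), CLK4 (5.3), HNRNPA0 (5.7) and SRSF8 (6.8). HNRNPUL2 and CLK2, which are not among the 45, stood at 0.976 and 2.83 CPM per kb when scaled within the Mps1i and DMSO libraries alone. CLK3, the highest kinase at 53.1 CPM per kb, stood below 13 hnRNP and 5 SR protein genes. Canonical lengths were used (8713 bases for HNRNPA0), so genes that use shorter forms were placed too low.

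**Figure D1:**
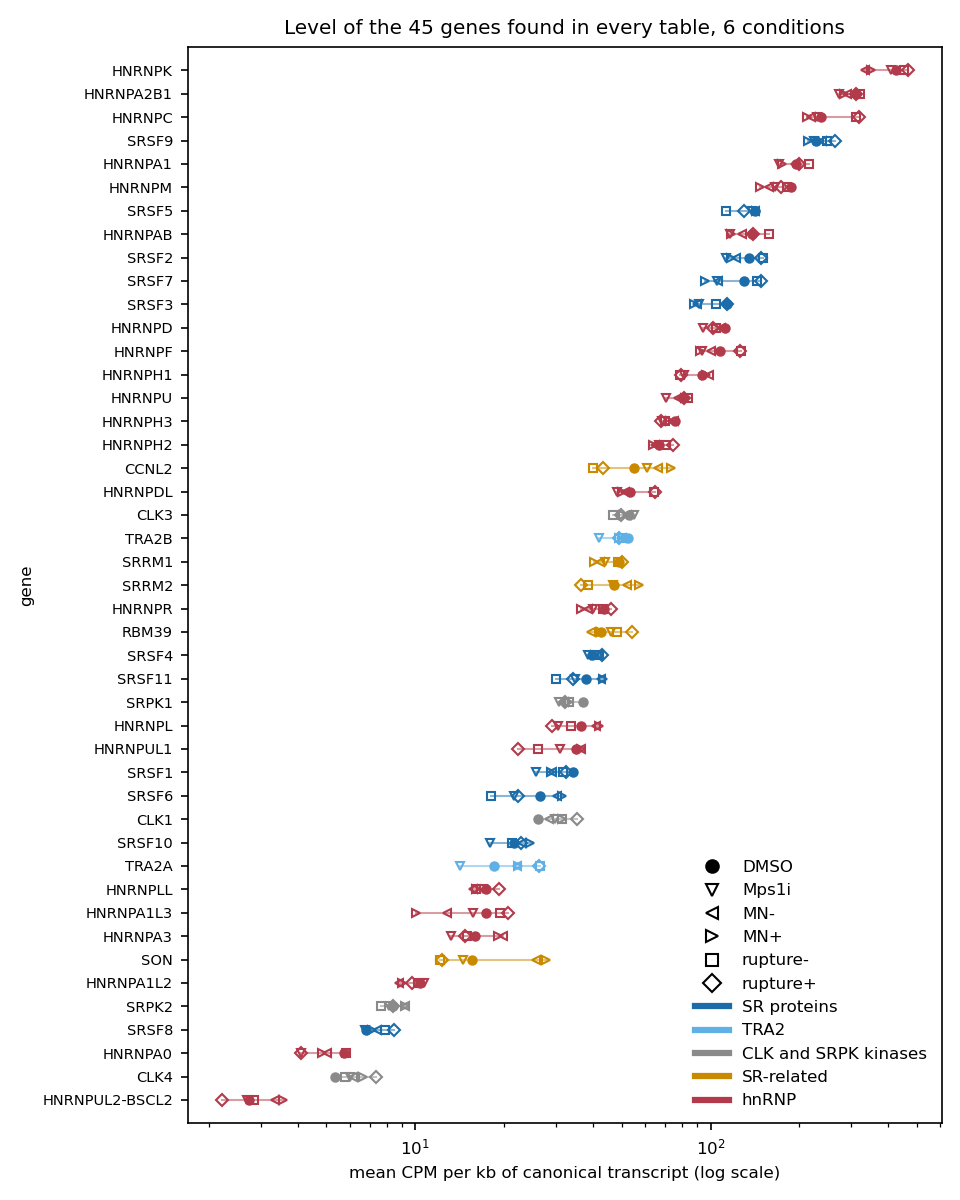
Mean level of the 45 genes found in every table, in CPM per kb of canonical transcript on a log scale, with all 22 libraries scaled together. Filled circles are DMSO and the open symbols the other 5 conditions. HNRNPK led in DMSO at 423 CPM per kb, and SON had the widest span, 2.3-fold between its highest and lowest condition.

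Mps1i against DMSO asks how RNA changed when chromosomes missegregated. Of 47 members, 23 fell, 1 rose and 23 did not pass, so that 48.9% fell where 5.76% of all 10577 genes tested fell and 6.32% rose. The fallen genes were 6 of 11 SR protein genes, both TRA2 genes, the kinase SRPK1, the SR-related gene SRRM1 and 13 of 23 hnRNP genes. The changes ran from -10.6% for SRRM1 to -35.8% for HNRNPUL2, and of the fallen members only HNRNPUL2 exceeded a 1.5-fold change. The median log2 fold change was -0.159 over the members and -0.00378 over all genes, and 40 of 47 members were below 0 where 51.0% of all genes were.

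Each experiment was processed on its own day, and with the experiment added as a block there were 27 lower and 3 higher members, beside 11.8% lower and 12.7% higher among all genes. The block added the decreases of SRSF11, HNRNPDL, HNRNPH3 and HNRNPR and the increases of CLK1 and RBM39. All 6 of these missed the threshold with the pulses of each experiment summed and the same block (adjusted p from 0.0685 to 0.215), where 19 members were lower and 0 higher. In 22 members every Mps1i library lay below every DMSO library, beside 9.23% of all genes, and in 2 every Mps1i library lay above, beside 10.1%. Of the 23 fallen members, 15 passed without any 1 of the 8 libraries, and 8 passed under each of 22 alternatives. Those 8 were SRSF1, SRSF2, SRSF3, SRPK1, HNRNPA0, HNRNPA3, HNRNPAB and HNRNPL. The matching shares among all genes that fell are not given here, so these counts do not set the members apart from other genes.

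**Figure D2:**
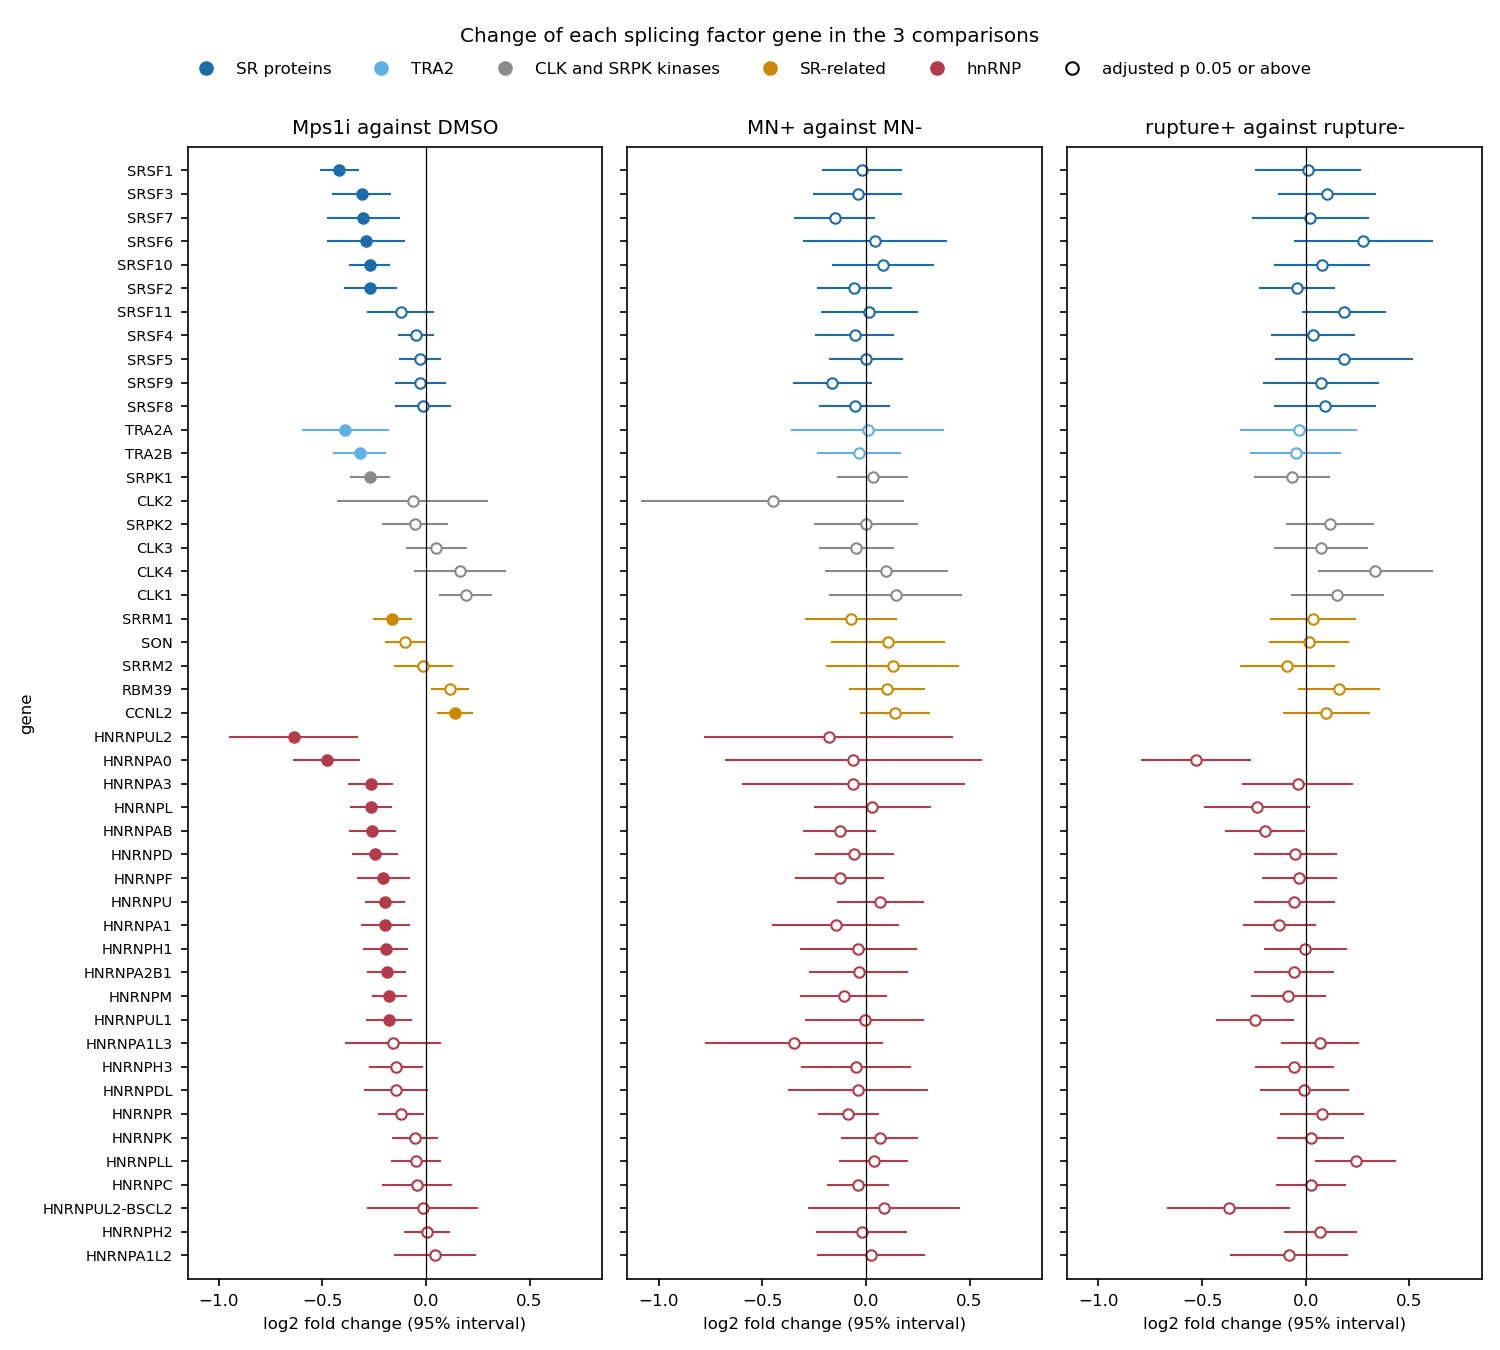
Log2 fold change of each gene (points) with its 95% interval (lines) in Mps1i against DMSO, MN+ against MN- and rupture+ against rupture-, coloured by class. Filled points passed the test: 24 of 47 in the left panel, 23 of them below 0, and 0 in the others.

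Promoter windows from RefSeq (GRCh38.p14) were found for 42 of 47 members. Shown is sequence from the 250 bases before the RefSeq start of the SR, TRA2 and hnRNP gene with the largest decrease, leaving out HNRNPUL2 for its shared reads and TRA2A, which had no window, and of CCNL2, which rose. They are printed to show what lies before genes that moved in opposite directions. Each reads 5′ to 3′ on the minus strand, with capitals for CCAAT or its reverse ATTGG, the box bound by NF-Y. GENCODE places the start of SRSF1 100 bases and that of TRA2B 89 bases upstream of the RefSeq start, and those bases are left out. The stretches printed are chr17:58007347-58007496, chr3:185938104-185938264, chr5:137754364-137754613 and chr1:1399336-1399585 in turn.
SRSF1: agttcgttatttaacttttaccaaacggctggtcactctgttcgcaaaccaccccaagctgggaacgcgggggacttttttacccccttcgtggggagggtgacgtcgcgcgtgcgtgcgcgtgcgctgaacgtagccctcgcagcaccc
TRA2B: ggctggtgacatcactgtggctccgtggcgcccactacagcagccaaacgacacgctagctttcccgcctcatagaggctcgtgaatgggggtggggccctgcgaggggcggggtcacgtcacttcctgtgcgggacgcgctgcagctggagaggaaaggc
HNRNPA0: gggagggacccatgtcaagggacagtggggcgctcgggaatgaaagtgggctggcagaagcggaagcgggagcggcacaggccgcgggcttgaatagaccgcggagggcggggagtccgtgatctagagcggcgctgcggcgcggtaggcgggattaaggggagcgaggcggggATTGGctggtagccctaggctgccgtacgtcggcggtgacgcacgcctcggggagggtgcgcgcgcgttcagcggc
CCNL2: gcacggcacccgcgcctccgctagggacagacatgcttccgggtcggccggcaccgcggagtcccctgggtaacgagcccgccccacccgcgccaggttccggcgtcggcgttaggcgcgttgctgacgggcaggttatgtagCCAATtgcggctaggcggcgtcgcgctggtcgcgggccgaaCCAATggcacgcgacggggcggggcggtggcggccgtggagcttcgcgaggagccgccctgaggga

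The printed stretches have GC contents from 59.3% to 73.6%, and CCNL2 carries the box 2 times, HNRNPA0 once and the SRSF1 and TRA2B windows not at all. On either strand CCAAT was in 14 of 21 hnRNP windows and 2 of 10 SR windows, beside 32.0% of 35116 promoters. Of the fallen members 10 of 20 held it, as did 10 of the 22 others. The E-box CACGTG was in 6 of 21 hnRNP and 0 of 10 SR windows (6.34% of all), TATAAA in 3 and 2 (10.7%), and TTTGAA, the letters of the cell cycle homology region, in 0 and 1 (13.3%). The shares depend on the background: among the 8403 of 10577 tested genes with a window they were 35.8% for CCAAT, 9.23% for CACGTG, 4.52% for TATAAA and 8.19% for TTTGAA. Over all members with a window the shares were 47.6%, 19.0%, 11.9% and 7.14%. Of the mitosis list, 18 of 20 windows held CCAAT and 13 held TTTGAA. These are letter matches in a fixed window, and no binding was measured.

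Among the SR protein genes, SRSF1 had the largest decrease. SRSF1 (chr17:58000919-58007346, GRCh38, minus strand) encodes the founding member of the family, a general and alternative splicing factor, and its promoter window held none of the motifs searched. Its level in DMSO was 177 and 182 CPM in experiment 1 and 185 and 179 CPM in experiment 2, and in Mps1i 139, 141, 130.2 and 130.2 CPM in the same order. All 4 Mps1i libraries were below all 4 DMSO libraries, with means of 135 ± 5.77 and 180.5 ± 3.56 CPM (SD, n = 4). In log2 terms SRSF1 fell by 0.42 (standard error 0.0402, adjusted p = 0.000273).

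SRSF3, the smallest SR protein, stood at 473, 506, 455 and 453 CPM in DMSO (experiment 1, then 2, with 200 before 800 ms) and at 402, 415, 354 and 351 CPM in Mps1i. SRSF7, which carries a zinc knuckle, stood at 300.5, 313, 298 and 292 CPM in DMSO and at 269, 274, 224 and 210 CPM (209.9) in Mps1i. For both genes the groups did not overlap, and the Mps1i libraries of experiment 2 were the lowest. SRSF3 changed by -0.31 (log2, standard error 0.0618, adjusted p = 0.00966) and SRSF7 by -0.30 (standard error 0.078, adjusted p = 0.0296). SRSF7 kept its call without either Mps1i library of experiment 1 and lost it without any 1 of the other 6 libraries (adjusted p 0.0531 to 0.0814).

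SRSF6 stood at 119, 125, 108 and 102 CPM in DMSO and at 88.3, 109, 87.3 and 87.4 CPM in Mps1i, where the experiment 1 library with the 800 ms pulse lay within the DMSO range. SRSF6 fell by 0.29 on the log2 scale (adjusted p = 0.0446). It kept the call without that library or without DMSO of experiment 2 at 800 ms, and lost it without any 1 of the other 6 (adjusted p 0.0656 to 0.1101). SRSF2, whose protein marks nuclear speckles, fell by 0.27 on the log2 scale (adjusted p = 0.0124), from 251 ± 13.0 to 209 ± 14.9 CPM. SRSF10, a splicing repressor when dephosphorylated, fell likewise by 0.27 (adjusted p = 0.00308), from 163 ± 8.5 to 135 ± 2.82 CPM. The other 5 SR protein genes did not pass: SRSF11 was at -0.12 on the log2 scale (adjusted p = 0.283, and 0.0491 with the block), and SRSF4, SRSF5, SRSF8 and SRSF9 lay between -0.05 and -0.01. All 11 values were negative.

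The TRA2 genes encode the vertebrate Transformer 2 proteins, which carry RS domains on both sides of the RNA recognition motif. TRA2B stood at 205, 209, 227 and 223 CPM in DMSO and at 186, 179, 168 and 159 CPM in Mps1i, without overlap. TRA2A was much lower, at 27.8, 34.5, 34.7 and 33.0 CPM in DMSO and 26.6, 27.9, 23.2 and 21.8 CPM in Mps1i, and the groups met at 27.8 and 27.9 CPM. TRA2B changed by -0.32 (log2, standard error 0.0555, adjusted p = 0.00461) and TRA2A by -0.39 (standard error 0.0936, adjusted p = 0.0221). TRA2A kept its call without either Mps1i library of experiment 1 or DMSO of that experiment at 200 ms, and lost it without any 1 of the other 5 libraries (adjusted p 0.0539 to 0.0657).

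Of the 6 kinases SRPK1 alone fell, from 159 ± 6.56 to 132 ± 4.58 CPM (log2 fold change -0.27, adjusted p = 0.00302), with no overlap. CLK1, the nuclear kinase that promotes SR protein release, stood at 44.4, 47.1, 50.4 and 47.5 CPM in DMSO and at 50.0, 53.1, 56.6 and 56.5 CPM in Mps1i, higher in each of the 4 pairs of the same experiment and pulse, with ranges that met at 50.4 and 50.0 CPM. A difference of 0.19 (log2, standard error 0.0567) missed the threshold (adjusted p = 0.0506). It passed with the experiment as a block (adjusted p = 0.00784) and without the Mps1i library of experiment 1 at 200 ms (adjusted p = 0.0324), and missed it with pulse as a term (adjusted p = 0.0796) and with pulses summed and the block (adjusted p = 0.0685). The other kinases were at 0.16 for CLK4, 0.05 for CLK3, -0.05 for SRPK2 and -0.06 for CLK2, none of which passed with or without the block.

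Of the SR-related genes, CCNL2, a cyclin of the nuclear speckle that binds CDK11, was the only member to rise. It stood at 170.2, 167, 165 and 173 CPM in DMSO and at 179, 185, 189.5 and 190.0 CPM in Mps1i, without overlap, a rise of 0.14 on the log2 scale (standard error 0.0362) with adjusted p = 0.03. The call held without either Mps1i library of experiment 1 or DMSO of that experiment at 200 ms, and was lost without any 1 of the other 5 libraries (adjusted p 0.051 to 0.0904). It was also lost with pulse as a term (adjusted p = 0.0523), with pulses summed and the block (adjusted p = 0.115) and with length and GC offsets (adjusted p = 0.0858). RBM39, a U2AF-related coactivator, stood at 208, 221, 209 and 208 CPM in DMSO and 223, 241, 226 and 226 CPM in Mps1i. Its difference of 0.12 (log2) had adjusted p = 0.0776, with 0.0314 in the blocked fit and 0.1604 with pulses summed and the block. SRRM1, a coactivator in the spliceosome, fell by 0.16 (adjusted p = 0.0283), from 180.5 ± 5.13 to 161 ± 6.71 CPM, and kept the call only without Mps1i of experiment 1 at 800 ms or DMSO of experiment 1 at 200 ms (otherwise adjusted p 0.0517 to 0.0825). The speckle scaffolds SON (log2 fold change -0.10, adjusted p = 0.151) and SRRM2 (-0.01, adjusted p = 0.918) did not pass.

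**Figure D3:**
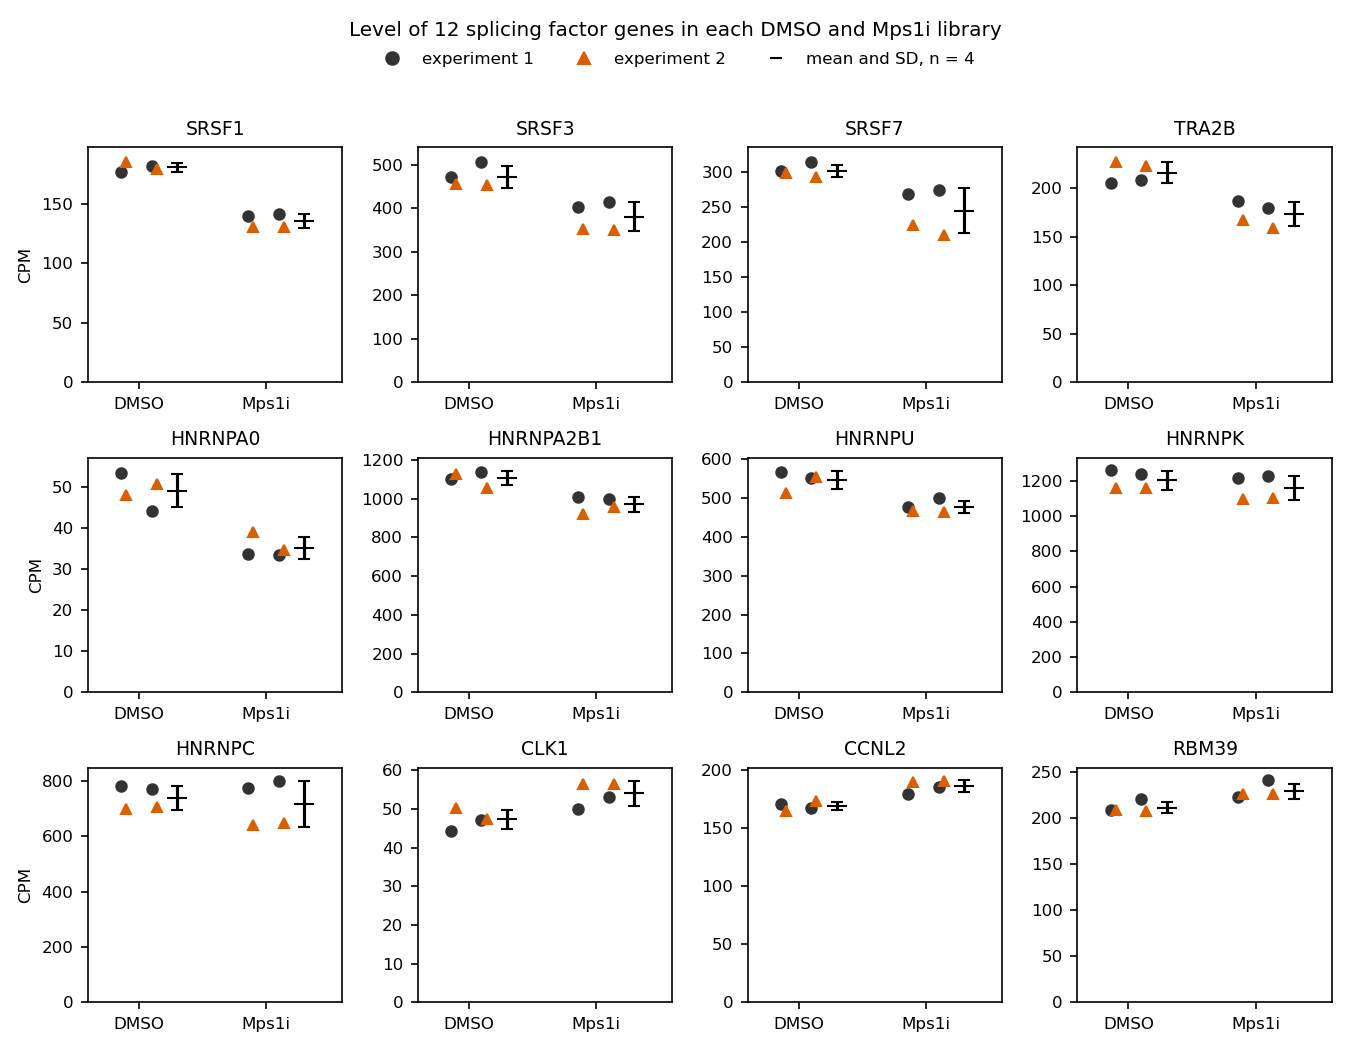
CPM of 12 genes in each of the 4 DMSO and 4 Mps1i libraries (circles, experiment 1, and triangles, experiment 2), with the mean and SD in black and axes from 0. SRSF1, HNRNPA0 and TRA2B show separate groups, HNRNPC and HNRNPK overlapping ones, and CCNL2 lies higher with Mps1i.

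Of the hnRNP genes, 13 of 23 fell and 0 rose, with 16 lower under the block. HNRNPA0 (chr5:137745651-137754363, GRCh38, minus strand), an intronless gene whose protein binds AU-rich mRNAs, stood at 53.4, 44.3, 47.97 and 50.8 CPM in DMSO and at 33.7, 33.3, 39.1 and 34.7 CPM in Mps1i. The groups did not overlap, and HNRNPA0 fell by 0.48 on the log2 scale (standard error 0.0711, adjusted p = 0.00222). HNRNPUL2, a nuclear protein with a role in DNA end resection, stood at 4.66, 4.39, 6.36 and 4.94 CPM in DMSO and at 3.69, 2.77, 3.44 and 3.19 CPM in Mps1i (log2 fold change -0.64, standard error 0.14, adjusted p = 0.0153). HNRNPUL2 shares 45.9% of its canonical exon bases with the read-through gene HNRNPUL2-BSCL2, which was at -0.02 on the log2 scale (adjusted p = 0.938). Summing the counts of both genes gave -0.19 and lost the call (adjusted p = 0.213). That sum is weighted to the read-through gene, at 10.8 CPM in DMSO against 5.09 for HNRNPUL2, so it cannot show how reads were divided. The part of read division in the call of HNRNPUL2 was not tested.

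The abundant genes of the A/B group, HNRNPA2B1 and HNRNPA1, changed by -12.2% and -12.7%. HNRNPA2B1 stood at 1103, 1139.9, 1129 and 1058 CPM in DMSO and at 1009, 998, 923 and 958 CPM in Mps1i. HNRNPA1, the classic antagonist of SRSF1, stood at 735, 752, 709 and 682 CPM in DMSO and at 675, 654, 593 and 592 CPM in Mps1i. Neither gene had overlapping groups, and on the log2 scale HNRNPA2B1 was at -0.19 (standard error 0.0405, adjusted p = 0.0138) and HNRNPA1 at -0.20 (standard error 0.0519, adjusted p = 0.0329). HNRNPA1 kept its call without either Mps1i library of experiment 1 or DMSO of experiment 2 at 800 ms, and lost it without any 1 of the other 5 (adjusted p 0.0621 to 0.093). Its near-identical copies HNRNPA1L2 (log2 fold change 0.04) and HNRNPA1L3 (-0.16) did not pass and are uncertain, since reads may be divided among the 3 genes, and their summed counts fell by 0.19 (adjusted p = 0.0363).

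HNRNPU, which binds scaffold attachment regions and RNA, stood at 565, 551, 511 and 554 CPM in DMSO and at 476, 498, 467 and 462 CPM in Mps1i, without overlap (log2 fold change -0.20, adjusted p = 0.0135). The other fallen genes were HNRNPA3 (log2 fold change -0.27), HNRNPL (-0.27), HNRNPAB (-0.26), HNRNPD (-0.25), HNRNPF (-0.21), HNRNPH1 (-0.19), HNRNPM (-0.18) and HNRNPUL1 (-0.18), with adjusted p from 0.00383 to 0.0364. HNRNPL recognises CA repeats, HNRNPD (AUF1) AU-rich elements, and HNRNPF and HNRNPH1 G-runs. HNRNPF kept its call only without either Mps1i library of experiment 1 (otherwise adjusted p 0.0649 to 0.0964), HNRNPUL1 only without DMSO of experiment 1 or Mps1i of experiment 2 at 800 ms (otherwise 0.0666 to 0.101), and HNRNPH1 lost it without either Mps1i library of experiment 2 (adjusted p up to 0.0696).

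HNRNPK and HNRNPC, among the highest members, did not pass. HNRNPK stood at 1261, 1239.7, 1158 and 1161 CPM in DMSO and at 1215, 1226, 1099 and 1105 CPM in Mps1i, a log2 fold change of -0.05 with a 95% interval from -0.16 to 0.05. HNRNPC stood at 779.9, 771, 699 and 704 CPM in DMSO and at 775, 799, 641 and 649 CPM in Mps1i, a log2 fold change of -0.04 (95% interval -0.21 to 0.12). In both genes the experiments differed more than the treatments did, since all 4 libraries of experiment 2 were below all 4 of experiment 1. HNRNPDL, HNRNPH3 and HNRNPR were at -0.14, -0.14 and -0.12 and passed with the block (adjusted p 0.0126, 0.0375 and 0.0239), and missed with pulses summed and the block (adjusted p 0.127, 0.169 and 0.192). HNRNPH2 and HNRNPLL were at 0.01 and -0.05, with opposite signs in the experiments: HNRNPH2 was at 0.11 in experiment 1 and -0.10 in experiment 2, and HNRNPLL at 0.05 and -0.14 (condition by experiment, edgeR adjusted p = 0.216 and 0.369).

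Set side by side, the median log2 fold change was -0.27 over 11 SR protein genes and -0.18 over 23 hnRNP genes. It was -0.00185 over the 6 kinases and 0.11 over the 4 CLK genes among them, of which 0 passed. In all, 54.5% of the SR and 56.5% of the hnRNP genes fell. The summed level of the 11 SR protein genes, with all libraries scaled together, was 2194 to 2321 CPM in DMSO and 1835 to 2036 CPM in Mps1i, or 86.2% of the DMSO mean. That of 22 hnRNP genes was 7084 to 7455 CPM in DMSO and 6293 to 6905 CPM in Mps1i, or 90.4%. Neither sum overlapped between groups. The SR sum as a percentage of the hnRNP sum was 30.8 ± 0.66 in DMSO and 29.3 ± 0.372 in Mps1i (SD, n = 4), and the difference between the classes was not tested.

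Several members share exons with other genes, and the library kit does not mark strand. Of 47 members, 18 share canonical exon bases with another annotated gene, 13 of them over 10% of these bases. SRSF1 shares 31.6% with the read-through gene ENSG00000266086, which was at 0.39 on the log2 scale (adjusted p = 0.0518), and the sum of both fell by 0.38 (adjusted p = 0.000415). HNRNPA3 shares 59.8% with NFE2L2 on the opposite strand, a gene that rose by 0.17 (adjusted p = 0.0205), and SRSF2 shares 30.1% with MFSD11, which rose by 0.26 (adjusted p = 0.0111). The part of shared reads in the decreases of HNRNPA3 and SRSF2 was not tested.

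In 34 of 47 members the log2 fold change was lower in experiment 2 than in experiment 1, beside 50.1% of all genes. In experiment 1 alone 8 of 47 members fell and 0 rose, where 2.27% of all genes fell. In experiment 2 alone 29 fell and 3 rose, where 12.4% of all genes fell. Genes that passed in either direction numbered 524 of 10577 in experiment 1 and 2798 in experiment 2. Experiment 2 was sequenced more deeply, with 133622809 to 145242185 counts per library against 65608678 to 74914744 in experiment 1. The part of depth in these counts of calls was not tested. TRA2A had log2 fold changes of -0.19 in experiment 1 and -0.59 in experiment 2, TRA2B -0.18 and -0.46, and SRSF7 -0.18 and -0.44. SRSF1 (-0.35 and -0.48) and HNRNPA3 (-0.25 and -0.28) were closer. HNRNPA0 went the other way, at -0.54 and -0.42. In the test of the difference itself (condition by experiment, edgeR), 0 of 47 members passed, beside 0.359% of all genes. The smallest adjusted p was 0.102 for TRA2B. An unadjusted p below 0.05 was found for 13 members, and the share of all genes at that p is not given here. The median over the members was -0.123 in experiment 1 and -0.195 in experiment 2.

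**Figure D4:**
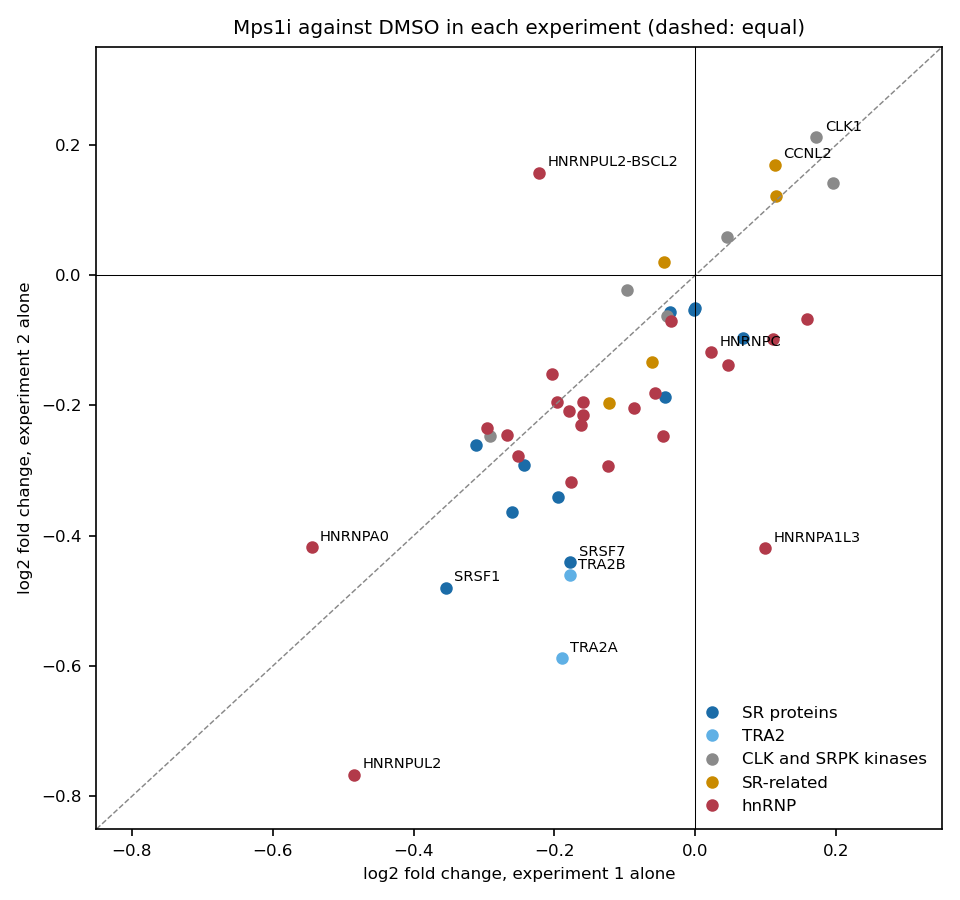
Log2 fold change of the 47 genes in experiment 1 alone (x axis) against experiment 2 alone (y axis), coloured by class, with equal effects on the dashed line. TRA2A (-0.19 and -0.59) and TRA2B lie below the line, HNRNPA0 (-0.54 and -0.42) above it.

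No member passed the test of the pulse. For 800 ms against 200 ms in the Mps1i and DMSO libraries 0 of 47 members passed (edgeR), beside 0.00945% of all genes, and 1 had an unadjusted p below 0.05. The log2 differences ranged from -0.25 for HNRNPUL2 to 0.20 for CLK2, both among the lowest counts. In the MN libraries 0 of 47 passed, beside 0.0% of all genes, with 0 at an unadjusted p below 0.05.

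Other genes of the splicing pathway were read from the same fit, where 5.76% of all genes fell and 6.32% rose. Of 66 core spliceosome genes 13 fell (19.7%) and 2 rose (3.03%, median log2 fold change -0.0573), with decreases of LSM2 (-0.38), LSM8 (-0.31) and SNRPE (-0.24), which form Sm and LSm rings, and an increase of the second-step factor SLU7 (0.21). Of 9 hnRNP family genes with other symbols 5 fell, among them RBMX (-0.26), PTBP1 (-0.21) and SYNCRIP (-0.16), and 0 rose. Of 39 other splicing regulators 5 fell (12.8%) and 2 rose (5.13%), with SFPQ (-0.32), KHDRBS1 (-0.26), TARDBP (-0.24) and SRRT (-0.18) lower.

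Of 8 further genes for RS domain phosphorylation and transport 2 fell, the SR protein importin TNPO3 (-0.19) and the phosphatase PPP1CC (-0.18). Of 18 exon junction and NMD genes MAGOH fell (-0.23), a share of 5.56% near that of all genes, and 0 rose. With the block, 25 core genes, 7 hnRNP genes with other symbols, 9 regulators, 2 phosphorylation and transport genes and 1 exon junction gene were lower, beside 11.8% of all genes. In that fit 2 core genes, 3 regulators and 1 exon junction gene were higher, beside 12.7% of all genes.

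Cell cycle genes moved in the same libraries. All 25 genes of a mitosis and G2 list fell (median log2 fold change -0.414), CCNB1 from 405 to 293 CPM (-0.47), and all 14 measured p53 targets rose (median 0.806), CDKN1A from 466 to 974 CPM (1.06). The summed mitosis level was 9906 to 10479 CPM in DMSO and 7064 to 8143 CPM in Mps1i. None of 5 epithelial markers passed, nor did CD68, the only one of 6 blood and endothelial markers measured, and of 7 mesenchymal genes TAGLN (0.37) and COL1A1 (0.47) rose and VIM (-0.10) fell. The part of the cell cycle shift in the splicing factor changes was not tested.

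MN+ against MN- asks whether cells with a micronucleus differ from treated cells without one. The study reports that its classifier missed some micronuclei, so part of the cells sorted as MN- carried one. The values below compare the groups as sorted. None of 47 members passed in edgeR, DESeq2 or limma-voom 0 had an unadjusted p below 0.05, and 0.0% of all 10594 genes passed, or 0.00944% with the block. The 95% interval lay within a 1.5-fold change in either direction for 42 of 47 members, with a median half-width of 0.218 on the log2 scale. SRSF1 stood at 138, 153, 172 and 155 CPM in MN- and at 151, 146, 148 and 165 CPM in MN+, a log2 fold change of -0.02 (95% interval -0.21 to 0.17). For 10 of the 23 members that fell with Mps1i, this interval lay wholly above the Mps1i estimate. These 23 were picked by their Mps1i estimates, and the error of those estimates is left out here. Whether the effects of Mps1i and of micronuclei differ in size was not tested.

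The groups overlapped for 46 of 47 members. In CCNL2 alone every MN+ library was above every MN- library, beside 2.43% of all genes, with 186, 200.2, 214 and 224 CPM in MN- and 231, 226, 225 and 228 CPM in MN+ (log2 fold change 0.14, adjusted p = 0.641). In no member was every MN+ library below, beside 3.14% of all genes. The lowest values were those of CLK2, a low-count kinase that spread from 3.47 to 9.76 CPM in MN- and from 3.59 to 6.15 CPM in MN+ (log2 fold change -0.45, adjusted p = 0.657), and HNRNPA1L3 (-0.35, adjusted p = 0.641). Both passed only with the pulses of an experiment summed and the experiment as a block (adjusted p = 0.0279 and 0.0204). SRSF9 (-0.16) and SRSF7 (-0.15) followed, with overlapping groups. The test of condition by experiment passed for 0 of 47 (edgeR), beside 0.00944% of all genes, and 2 had an unadjusted p below 0.05. No gene of the other lists passed (edgeR), with p53 targets at a median of 0.252 and CDKN1A at 0.22 (adjusted p = 0.641).

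Rupture+ against rupture- asks whether rupture of the micronucleus changed RNA. By the study's estimate, part of the cells sorted as rupture- had a ruptured micronucleus by the end of sorting. These values too compare the groups as sorted. None of 45 members passed in edgeR, beside 0.0317% of all 9461 genes, or 0.159% with the block, where again no member passed. An unadjusted p below 0.05 (edgeR) was found for 6 of 45 members, beside 847 of all 9461 genes. The 6 were HNRNPA0, HNRNPUL1, HNRNPUL2-BSCL2, HNRNPLL, CLK4 and HNRNPAB. HNRNPA0 stood at 56.7, 52.0 and 45.2 CPM in rupture- and at 32.5, 33.9 and 40.2 CPM in rupture+ (experiments 1 to 3). Every rupture+ library was below every rupture- library, and the log2 fold change was -0.53 (standard error 0.117, 95% interval -0.79 to -0.27, adjusted p = 0.373 in edgeR). In DESeq2 it was the only member to pass (adjusted p = 0.009), and it was singled out here after that call was seen. In edgeR its adjusted p stayed between 0.198 and 0.946 without any 1 of the 6 libraries.

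CLK4 stood at 15.4, 15.7 and 12.5 CPM in rupture- and at 17.9, 18.9 and 18.3 CPM in rupture+ (log2 fold change 0.34, adjusted p = 0.55). Rupture+ libraries lay wholly below rupture- libraries in 5 members, beside 6.7% of all genes, and wholly above in 4, beside 9.58%. The classes differed in sign, without a test. Of 11 SR protein genes 10 had positive and of 22 hnRNP genes 16 had negative log2 fold changes, where 50.6% of all genes were negative. The medians were 0.0799 and -0.0531. Neither class sum moved one way in all 3 experiments. In experiments 1 to 3 the SR sum was 2326, 2031 and 2600 CPM in rupture+ and 2391, 2021 and 2121 CPM in rupture-. The hnRNP sum was 7739, 7279 and 7952 CPM in rupture+ and 8137, 7724 and 7430 CPM in rupture-. SRSF1 itself ranged from 146 to 202 CPM in rupture+ and from 164 to 175 CPM in rupture-. The mitosis list had a median of 0.179, and no gene of it or of the other lists passed (edgeR). The 95% interval lay within a 1.5-fold change for 41 of 45 members.

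Over the 6 conditions, with 9431 genes scaled together, the SR sum averaged 2248 ± 54.7 CPM in DMSO, 1937 ± 97.3 in Mps1i, 2107 ± 121 in MN-, 2049 ± 123 in MN+, 2178 ± 191 in rupture- and 2319 ± 285 in rupture+ (SD, n = 4, and 3 in the rupture groups). The hnRNP sum averaged 7305 ± 181, 6605 ± 333, 6738 ± 442, 6585 ± 350.3, 7764 ± 355 and 7657 ± 344 CPM in the same order. Ordered by level, neighbouring SR sums differed by less than the larger of their SDs. So did the hnRNP sums, except that DMSO lay between rupture+ and MN- by more than these SDs. Condition and day cannot be told apart between tables. Of 45 members, 15 were lowest in Mps1i and 16 highest in rupture+. The matching shares of the 9431 genes are not given here, so these counts are not read as a trait of the members. SON varied most, from 101 CPM in rupture- to 233 CPM in MN+, then HNRNPA1L3, TRA2A and CCNL2.

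**Figure D5:**
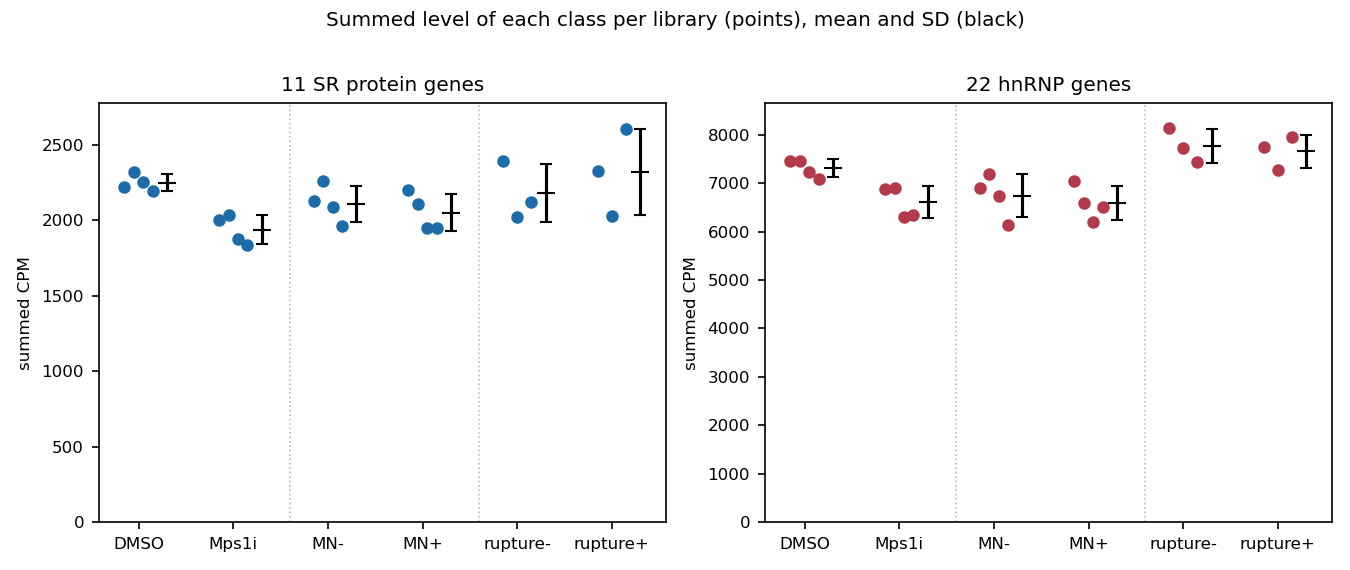
Summed CPM of 11 SR protein genes (left) and 22 hnRNP genes (right) in each library of the 6 conditions, with the mean and SD in black, axes from 0 and dotted lines between tables. The Mps1i libraries (1835 to 2036 and 6293 to 6905 CPM) lie below the DMSO libraries, and the micronucleus and rupture pairs overlap.

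Members were spread over the genome, on 20 chromosomes, and the 23 fallen genes over 13. All 11 SR protein genes and 15 of 23 hnRNP genes have at least 1 annotated NMD transcript in GENCODE, beside 50.8% of the 10112 coding genes tested. Of the fallen members 19 of 23 have one, as do 19 of the other 24. HNRNPA0 has 1 exon and 1 transcript, with none annotated for NMD. Median canonical length was 3744 bases for the fallen members and 3000.5 for the others, and median GC content 41.8% and 43.3%.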

How the data were processed

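Splicing factor genes were measured in 22 RNA-seq libraries of sorted RPE1 cells, prepared with SMART-Seq v4 and Nextera XT, which do not mark strand. The authors estimated counts with Salmon (1.2 in the submitters' processing notes) on hg38 and deposited these estimated counts as whole numbers. In each table the second-highest count of a gene was never below 700. Transcript-length offsets were not used here. Where the labels divide a library into parts, the table holds 1 column, and 1 part of an MN- library was not analysed here. The members, gene lists and tests were chosen with earlier results of these data known.

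Differences were tested with edgeR 4.0.16 in R 4.3.3 (quasi-likelihood F test, TMM, condition alone, Benjamini-Hochberg over all genes of a table, threshold 0.05). Standard errors were taken from F, as the absolute log2 difference divided by its root. A second fit had the experiment as a block, because the labels give its libraries one day. Deviations from group means (log2 CPM) correlated within an experiment and pulse by r = 0.0279 to 0.372 in the Mps1i table, by -0.0133 to 0.509 in the MN table and by 0.00951 to 0.229 between rupture pairs. Alternatives were DESeq2 1.42.0, limma-voom 3.58.1, other scaling and filters, pulse terms or sums, length and GC offsets (splines, 4 degrees of freedom) and leaving out libraries or experiments. Summing counts of overlapping copies was chosen after seeing the data. Levels over 6 conditions used TMM over the 9431 genes common to the tables. In Mps1i against DMSO, values in every library were given for members that passed with or without the block (at most 8 per direction by size of change) and for 11 members fixed by name, and library values in the other comparisons were chosen after they were seen. Of other lists, up to 4 genes with the smallest adjusted p were named, and 1 such gene is not reported here. Positions and exons come from GENCODE v44. Tables were made with Python 3.11.15. Of the tests of condition, edgeR (condition alone, block, or offsets), DESeq2 without the block and limma-voom were first tried on simulated counts. The pulse and interaction tests and the other alternatives were not. Total counts of 47919780 to 145242185 per library limit precision, and intervals cover the spread between libraries.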

Additional observations from a re-analysis of the deposited data

Results flagged for a closer look

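Within groups of 4 libraries, 9 of 188 group and gene combinations (4.79%) had 1 library far from the other 3 by Dixon's criterion, and chance flags about 1 in 20. In Mps1i, experiment 1 with the 800 ms pulse, SRSF6 was at 109 CPM where the others were at 87.3 to 88.3, and HNRNPA1L2 at 16.5 CPM where the others were at 13.2 to 13.5. HNRNPL was at 68.2 CPM in Mps1i experiment 2 (800 ms), above 62.3 to 63.2 CPM. In DMSO, RBM39 was at 221 CPM in experiment 1 (800 ms) against 208 to 209, and SRRM1 at 188 CPM in experiment 2 (800 ms) against 177 to 179. In MN-, experiment 1 with the 800 ms pulse, HNRNPK was at 1076 CPM against 905 to 921, HNRNPLL at 68.6 CPM against 62.9 to 63.8, and HNRNPM at 334 CPM against 405 to 408. SRSF2 was at 205 CPM in MN- experiment 2 (800 ms), below 236 to 238. All 9 were 800 ms libraries. No member passed the test of 800 ms against 200 ms, but that test asks about a shift in mean. It cannot address the scatter of single libraries, and whether scatter differed by pulse was not tested.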

How the results depend on the processing

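For Mps1i against DMSO, 23 members were lower and 1 higher. The higher members numbered 3 with the replicate block, 3 with DESeq2 without and 3 with the block, 2 with limma-voom, 4 with length and GC offsets and the block, 0 with pulse as a term, 0 with pulses summed and the block, 3 without experiment 1 and 0 without experiment 2. Lower members numbered 19 to 29 under the other settings and 8 without experiment 2, where 524 genes were called. Leaving out 1 library gave 0 to 2 higher and 15 to 22 lower members and 717 to 1219 genes called where all libraries gave 1277. Those counts were 717 and 792 without the 200 ms or 800 ms Mps1i library of experiment 2, and 826 and 766 without its DMSO libraries, with 15 lower members without the Mps1i library at 200 ms. Genes called rose to 2593 with the block, 3040 with DESeq2 and the block, 3170 with offsets and the block and 2798 without experiment 1. Single members were followed under alternatives for 33 results only. These were the members that passed in Mps1i against DMSO with or without the block, HNRNPC, HNRNPK, and HNRNPA0 in rupture+ against rupture-. Of their 723 values, 612 kept direction and call, 76 lost it, 32 gained it and 3 changed sign. The last were all HNRNPC, at 0.0051 and 3.84e-05 without the Mps1i library of experiment 2 at 200 ms or 800 ms and 0.022 without experiment 2.

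For MN+ against MN-, 2 members were lower with pulses summed and the block, and 0 otherwise. Genes called numbered 0 in edgeR (789 at an unadjusted p below 0.05), 1 with the block, 5 with DESeq2, 166 with DESeq2 and the block, 1 with offsets and the block, 822 with pulses summed and the block and 2 without experiment 2. Leaving out 1 library gave 0 throughout. For rupture+ against rupture-, 1 member was lower with DESeq2, without and with the block (1 in each). Genes called numbered 3, then 15 with the block, 47 with DESeq2, 72 with DESeq2 and the block, 0 with DESeq2 size factors, 35 with offsets and the block, 10, 1 and 0 without experiments 1, 2 and 3, and 0 to 6 without 1 library. The summed levels of the SR and hnRNP classes moved by less than 1 SD with scaling within tables or without SRSF3 or HNRNPK. Causes of these differences were not tested. The pulse and interaction tests were run as designed only.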
